A study of Homo sapiens with 4 samples.

Results

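The androgen response of 22Rv1 cells that carried a control siRNA (siControl) is described here as the difference between 1 array of cells given 10 nM dihydrotestosterone (DHT) and 1 array of cells given vehicle. All genes named by a single symbol in the platform table were considered, and a gene was kept where its signal exceeded the background of at least 1 of these 2 arrays, taken as the 95th percentile of the array's negative control probe sets. This left 8164 of 17687 genes (46.2%), of which 7347 lay above background on both arrays, 167 on the DHT array alone and 650 on the vehicle array alone. Of the genes kept, 8070 were protein-coding and 48 were long non-coding RNA genes by their RefSeq class. Of the genes at the limit, PPP6R2 lay just inside it, 0.0015 above the vehicle background on the log2 scale, and EBLN2 just outside, at -0.0001 from the DHT background.

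22Rv1 is a human prostate cancer line that grows without testicular androgen, and stands for a single tumour. The study held 4 arrays, 1 for each combination of siControl or an siRNA against the transcription factor OCT1 (siOCT1) with DHT or vehicle. Cells had spent 3 days in phenol red-free medium with 2.5% charcoal-stripped serum, were transfected 48 h before the hormone, and were exposed to 10 nM DHT or vehicle for 24 h, so every group shares the transfection and the stripped serum. Total RNA was labelled with biotin by a whole-transcript kit and measured on a microarray as log2 signal.

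Androgens are steroid hormones, of which DHT is the more potent metabolite of testosterone, and they act in luminal prostate cells by changing transcription through androgen response elements, stretches of DNA built of inverted hexamers. In these cells androgen switches on genes for secreted proteases, secretion, lipid and polyamine metabolism, and it lowers a smaller set. Glucocorticoids act through much the same DNA element and share some of the genes. FKBP5 and POU2F1, which encodes OCT1, were not analysed here, so the depletion of OCT1 was not checked.

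With 1 array a group no difference below has a replicate check, no test was possible, and "higher" and "lower" describe these 2 arrays. Differences are DHT minus vehicle in log2, and a gene was counted where it passed 1.5-fold after a value below its array's background was raised to that background. A fold written "at least" rests on such a background. Signals above 16, found for 354 probe sets on the vehicle array and 327 on the DHT array, exceed what a 16-bit scanner can give, so the scale is possibly stretched, and each fold applies to the values as deposited. Both arrays correlated with Pearson r of 0.987 across probe sets, and the median difference of the 8164 genes was -0.03, with quartiles of -0.36 and 0.36. Of 612 negative control probe sets 48 lay above background, and 21 of these were higher and 14 lower by the same rule, 72.9% of them, so a count of dim genes contains noise. Among 2057 positive control probe sets above background 4.33% were higher and 13.8% lower.

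By the size rule more genes were higher than lower in DHT. The rule counted 1252 genes (15.3% of those kept) higher and 827 (10.1%) lower, and 6085 passed in neither direction. At 2-fold the counts were 573 higher and 225 lower, at 4-fold 82 and 31, and at 8-fold 24 and 7. The higher genes made up 60.2% of the genes counted. Their share was 77.2% (1744 higher and 516 lower) when the arrays were centred on their positive controls, which raised every difference by 0.15. With the 50th percentile of the negative controls as background it was 52.3% (1779 higher and 1622 lower). The plot of both arrays against each other shows the higher genes spread from below background to the brightest signals.

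**Figure D1:**
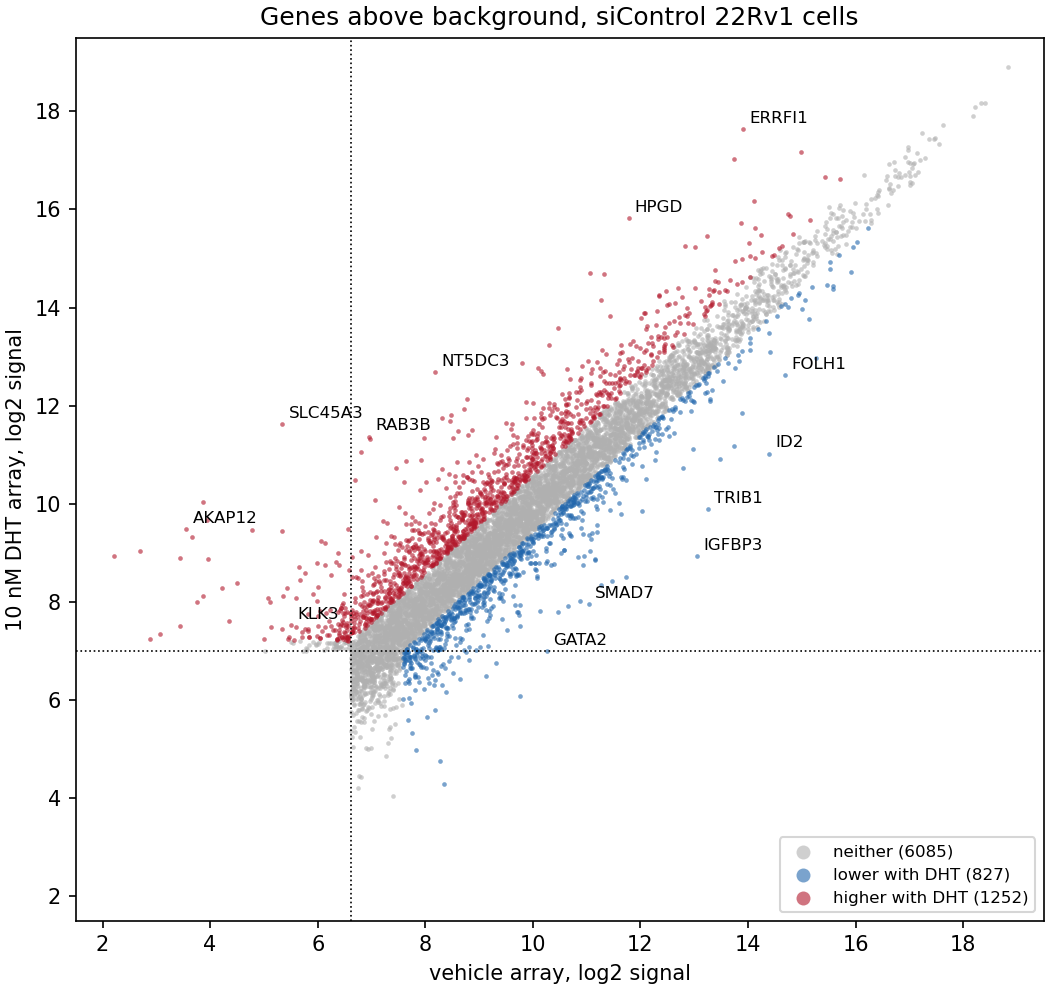
Log2 signal of the 8164 genes on the vehicle array (horizontal) and on the DHT array (vertical), 1 point a gene, red for 1252 genes counted higher, blue for 827 counted lower and grey for the rest. Dotted lines mark the background of each array, 6.62 and 6.99, and the points left of the vertical line, such as SLC45A3, have a bound in place of a fold.

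The 15 genes with the largest increase were led by SLC45A3, or prostein, a prostate-specific membrane transporter. Its signal was 5.34 in vehicle, below background, and 11.63 in DHT, at least 32.1-fold higher. NT5DC3, a protein with a nucleotidase domain, stood at 8.19 and 12.69, a difference of 4.50 (22.5-fold). RAB3B, a small GTPase of regulated secretion, stood at 6.95 and 11.37, a difference of 4.42 (21.4-fold). SLC45A3 and RAB3B lay near or below background without hormone, and all 3 were far above it with hormone.

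HPGD, which inactivates prostaglandins, was already well above background in vehicle. It stood at 11.78 and 15.83, a difference of 4.05 (16.6-fold). So was ERRFI1, a feedback inhibitor of the epidermal growth factor receptor, at 13.91 and 17.64 (3.74), whose DHT value lies above 16. DBI, the acyl-CoA-binding protein, stood at 11.07 and 14.71 (3.64). NAT1, an arylamine N-acetyltransferase, rested at 6.80, just above background, and reached 11.06 (4.26). SAT1, the rate-limiting enzyme of polyamine breakdown, stood at 8.77 and 12.14 (3.37), and MALT1, a protease-like scaffold of NF-kappaB signalling, at 7.98 and 11.35 (3.37).

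Genes of the STEAP family, membrane proteins of which some reduce iron and copper, appeared together. STEAP2 stood at 11.32 and 14.68, a difference of 3.35. STEAP1 stood at 6.97 and 11.32 (4.35) and STEAP1B at 8.48 and 11.81 (3.33), but these are close copies that the probes may not separate, which leaves the signal of each uncertain. STEAP4 lay below background in vehicle at 3.75 and stood at 8.0 in DHT, at least 2.59-fold higher. The remaining genes of the 15 were SNAI2, a repressor of epithelial genes (Slug), at 8.32 and 11.75 (3.43), F3, the tissue factor that starts coagulation, at 3.86 and 10.05 (at least 10.7-fold), and HSPA2, a chaperone of the HSP70 family, at 6.70 and 10.49 (3.79).

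At the other end stood IGFBP3, which binds and sequesters insulin-like growth factors. Its signal was 13.06 in vehicle and 8.93 in DHT, a difference of -4.13 (17.5-fold lower). TRIB1, a pseudokinase that recruits a ubiquitin ligase, stood at 13.26 and 9.90 (-3.36), and ID2, an inhibitor of basic helix-loop-helix factors, at 14.39 and 11.03 (-3.36). All 3 were bright in vehicle and stayed above background in DHT.

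GATA2, a zinc finger transcription factor known to open chromatin, stood at 10.26 and 7.0, a difference of -3.26, which left it at the background of the DHT array. The membrane and surface genes among the 15 lowest were TMEM45A, at 9.76 and 6.08 (at least 6.82-fold lower), the transmembrane mucin MUC13, at 10.88 and 8.02 (-2.86), and the integrin ligand EDIL3, at 10.47 and 7.79 (-2.68). Synaptic genes were also present. NETO1, an auxiliary subunit of glutamate receptors, differed by -2.93 and CBLN2, a secreted synapse organiser, by -2.56. Enzymes completed the list, with the lipid phosphatase PLPP4 at -3.24, the sialyltransferase ST3GAL1 at -3.04, and the liver-type glycogen phosphorylase PYGL at 9.32 and 6.76 (at least 5.04-fold lower).

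**Figure D2:**
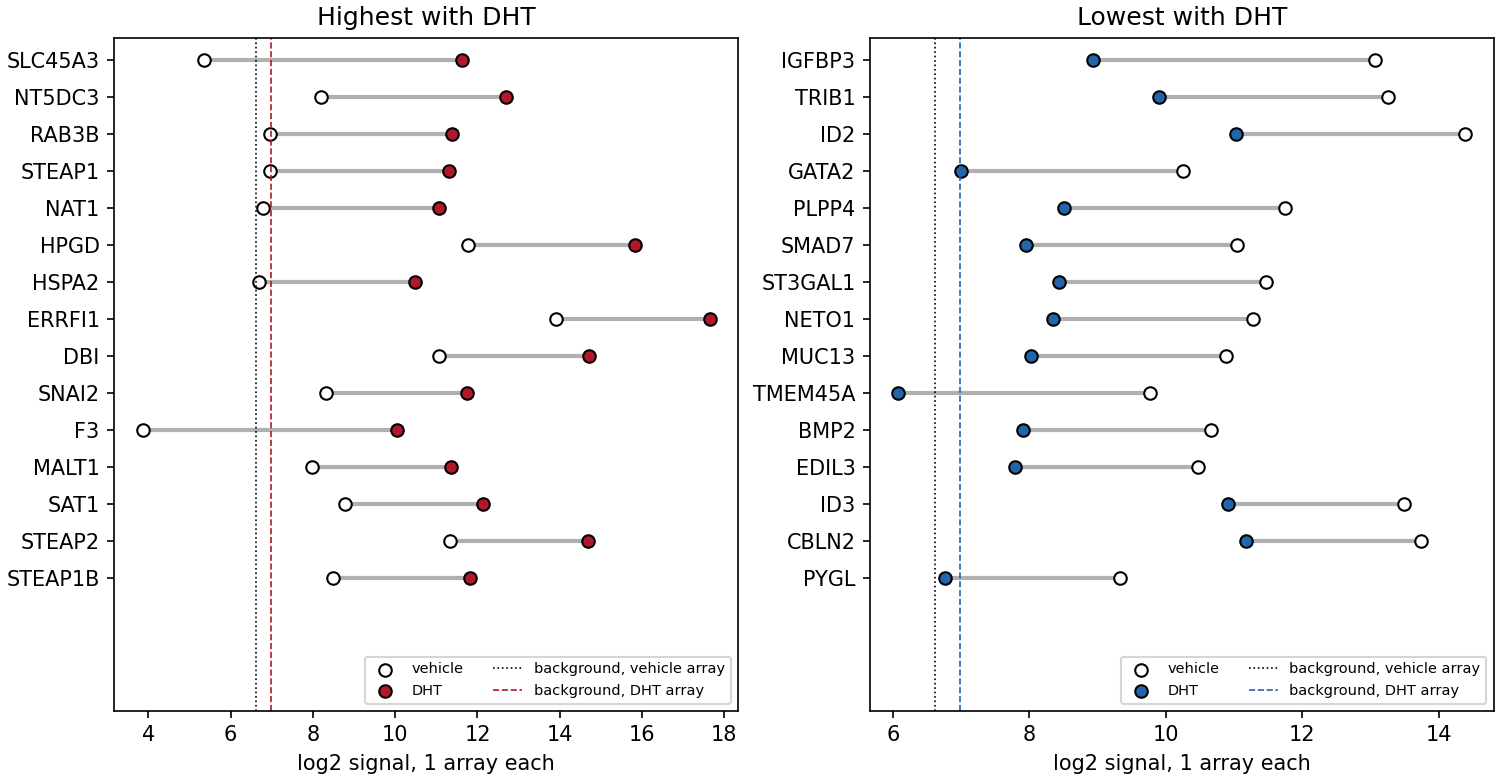
Log2 signal on the vehicle array (open circles) and on the DHT array (filled circles) for the 15 genes with the largest increase (left) and the 15 with the largest decrease (right), ordered by the difference with values below background raised to it. Vertical lines mark the backgrounds of the arrays, 6.62 for vehicle and 6.99 for DHT, and SLC45A3 and F3 lay below them in vehicle while TMEM45A and PYGL lay below them in DHT.

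Genes widely used as androgen targets had the largest share of higher genes of any list with over 10 genes above background, 86.4%. Of 22 such genes above background, 19 were higher, 1 was lower and 2 were neither, with a median difference of 3.22 (2.63 with values raised to background). Some of these genes were put on the list with earlier results of these arrays in view, so the count is not independent evidence of its direction. Of the 15 above background on both arrays 12 were higher and 1 lower, the other 7 having passed on the DHT array alone, so that they could not be counted as lower. With the 99th percentile of the negative controls as background 11 were higher and 1 lower. Beyond those already named, NDRG1, a growth-arrest protein, stood at 7.45 and 10.72 (3.27), STK39, a kinase of ion transport, at 8.72 and 11.93 (3.21), ZBTB16, a zinc finger repressor, at 7.63 and 10.87 (3.23), and the elongation factor gene ELL2 at 12.82 and 15.26 (2.44). The proteinase precursor PGC, pepsinogen C, was at least 6.53-fold higher. TRIB1 was the lower member, and KLK4 (15.29 and 15.56) and TSC22D3 (8.96 and 8.98) passed in neither direction.

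The kallikreins, the secreted proteases through which the androgen response is usually read, were modest in comparison. KLK2 stood at 7.04 and 8.37, a difference of 1.32 (2.5-fold). KLK3, which encodes prostate-specific antigen, lay below background in vehicle at 5.51 and stood at 7.53 in DHT, at least 1.87-fold higher. Unraised, KLK3 differed by 2.01, so its bound does not show a small response. With the higher of the backgrounds used for both arrays its difference came to 0.54 and missed the size rule. KLK4 was bright on both arrays with a difference of 0.27. KLK2 and KLK3 are close copies, so their probes may share transcripts. TMPRSS2, another usual reporter of the androgen response, lay below background on both arrays (5.41 and 5.51) and was not among the genes kept.

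Promoter sequence was read from RefSeq windows (GRCh38.p14) of 250 bases before to 50 bases after a start site, which covered 6893 of the genes kept. The element searched was the hexamer AGAACA, 3 free bases and the hexamer TGTTCT, which reads alike on both strands, with at most 2 mismatches in the 12 fixed bases. The KLK3 site is the proximal element long known in this promoter, the KLK2 window holds a like stretch with 3 mismatches, and PMEPA1, NFIB and SLITRK6 are the windows with a site before the start among genes higher by at least 4-fold. Each is printed in the direction of the gene with the 12 fixed positions in capitals.
KLK3: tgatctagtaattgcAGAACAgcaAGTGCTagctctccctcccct
KLK2: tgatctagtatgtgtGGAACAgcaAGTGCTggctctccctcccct
PMEPA1: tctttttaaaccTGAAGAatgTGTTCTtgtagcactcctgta
NFIB: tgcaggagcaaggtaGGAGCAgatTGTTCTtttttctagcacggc
SLITRK6: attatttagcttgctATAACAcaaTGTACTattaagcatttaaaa
These lie at chr19:50854730-50854774 (plus strand, bases -170 to -156 from the start site), chr19:50873248-50873292 (plus, -176 to -162), chr20:57710786-57710827 (minus, -238 to -224), chr9:14306956-14307000 (minus, -140 to -126) and chr13:85799611-85799655 (minus, -221 to -207).

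A full site in the proximal promoter was rare in every set. It stood in 14 of 1574 windows of higher genes (0.89%), 10 of 1022 windows of lower genes (0.98%), 0.51% of windows of genes in neither set and 1.41% of all 35116 windows. Among genes higher by at least 4-fold 4 of 126 windows (3.17%) held one, the fourth being that of STON2, whose match lies after the start, and among genes lower by at least 4-fold 0 of 37 did. A single exact hexamer stood in 10.0% of the windows of higher genes, 9.39% of those of lower genes and 14.8% of all windows. No site in these windows says nothing of elements elsewhere. Of the genes printed, PMEPA1, an inhibitor of TGF-beta signalling, stood at 10.15 and 12.70 (2.55). NFIB, a transcription factor of the nuclear factor I family, stood at 13.02 and 15.24 (2.21), and SLITRK6, a neuronal membrane protein, at 8.87 and 11.50 (2.62).

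A broader set of androgen-response genes, which shares members with the list above, gave a more mixed picture. Of 74 genes above background 39 were higher, 3 lower and 32 neither, with a median of 0.72, and of the 66 above background on both arrays 32 were higher and 3 lower. PIAS1, a SUMO ligase that modifies nuclear receptors, stood at 13.24 and 15.45 (2.21), and the cytokeratin KRT8 at 13.87 and 15.72 (1.85). AKAP12, a scaffold for protein kinase A, lay far below background in vehicle at 3.56 and stood at 9.49 in DHT, at least 7.29-fold higher. The lower members were RPS6KA3, CCND3 and SCD, the last a fatty acid desaturase at 15.59 and 14.38 (-1.20).

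Of 20 genes listed as androgen-repressed 17 were measured and 6 lay above background. Of these 6, 4 were lower and 0 higher, with a median of -2.15. Besides IGFBP3 and GATA2 the lower genes were FOLH1, prostate-specific membrane antigen, at 14.69 and 12.63 (-2.06), and the serine protease inhibitor SERPINI1, at 8.38 and 6.16 (at least 2.63-fold lower). SERPINI1 passed on the vehicle array alone and so could not be counted as higher. Of the 5 above background on both arrays 3 were lower. Genes for proteins that open chromatin or assist nuclear receptors split both ways. Of 23 genes for pioneer factors and coregulators 4 were higher and 5 lower, with a median of 0.06. NRIP1, a corepressor of nuclear receptors, stood at 7.75 and 9.73 (1.98), and SPDEF, an epithelial ETS factor, at 10.89 and 12.57 (1.68), whereas FOXA1, the forkhead pioneer factor, was level at 14.06 and 14.15.

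Genes shared with the glucocorticoid response were higher or passed in neither direction. Of 16 above background 11 were higher and 0 lower, with a median of 1.90 (1.28 with values raised to background). Of these, 5 passed the background on the DHT array alone and so could not be counted as lower, and of the 11 above background on both arrays 6 were higher and 0 lower. SGK1, a kinase of ion transport and survival, lay at 3.45 in vehicle and 8.90 in DHT, at least 4.87-fold higher. GLUL, glutamine synthetase, stood at 12.34 and 14.26 (1.92). The metallothioneins MT2A and MT1X and the phosphatase gene DUSP1 passed in neither direction. The glucocorticoid receptor gene NR3C1 lay below background on both arrays, at 6.55 and 5.58, and was not kept.

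The gene lists set against each other show androgen targets with the largest share of higher genes and androgen-repressed and BMP pathway genes with the largest shares of lower ones, with the share of all genes kept, 15.3% higher and 10.1% lower, as the level to read them by.

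**Figure D3:**
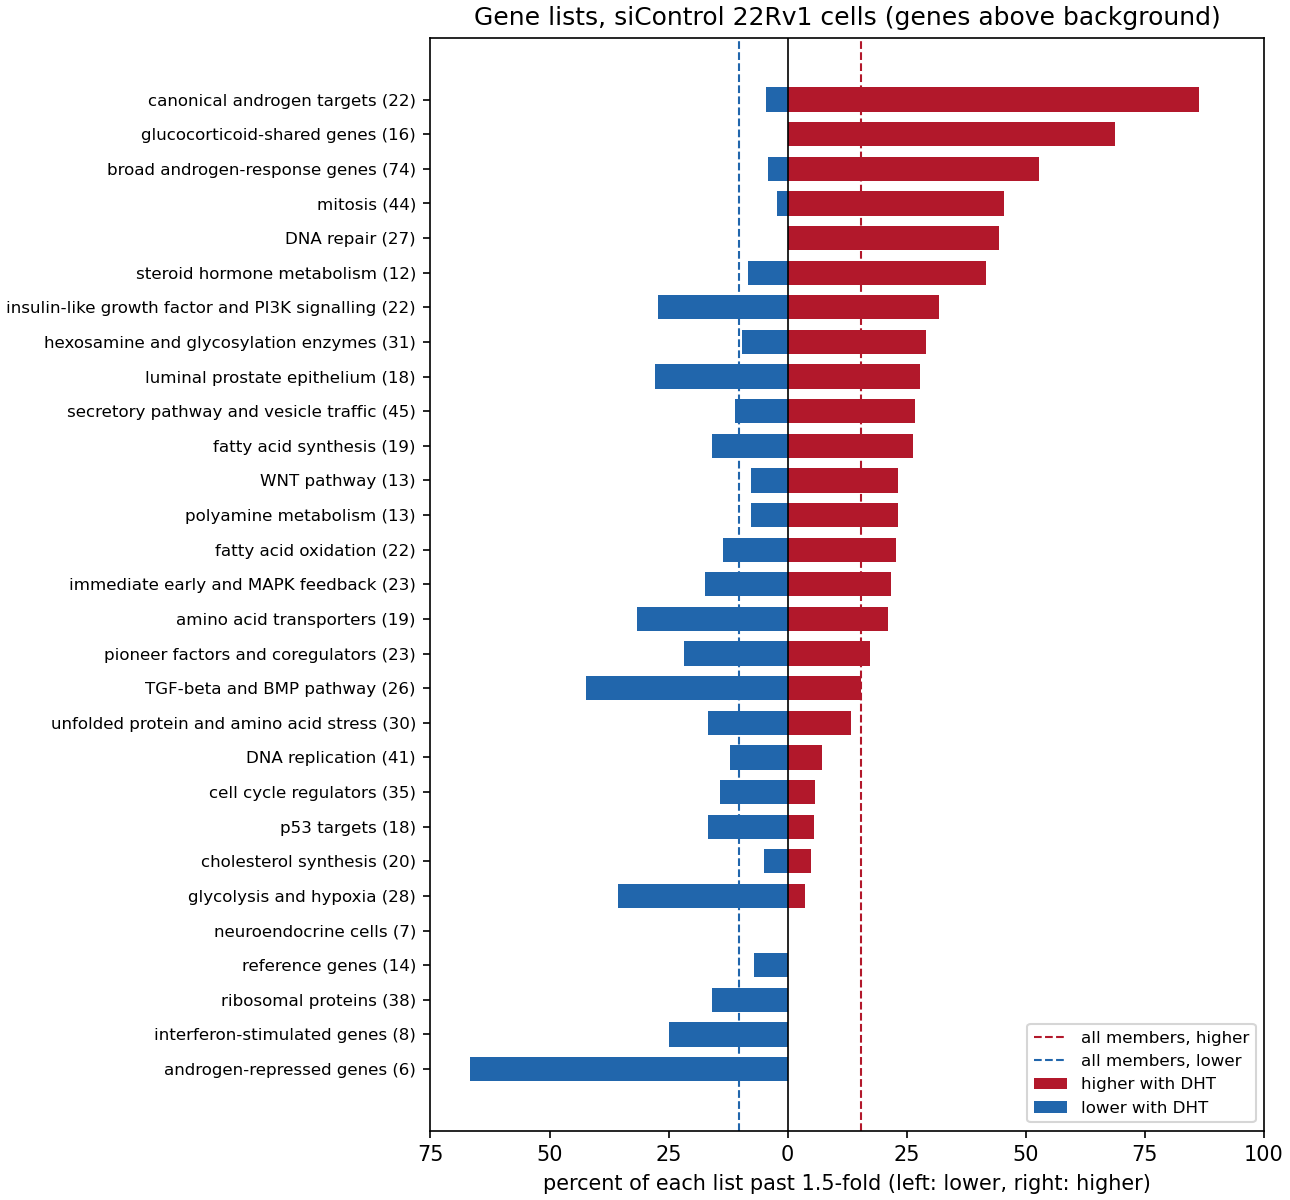
Share of each gene list counted higher (red, to the right) and lower (blue, to the left) with DHT, in percent of the list's genes above background, whose number stands in brackets. Dashed lines mark 15.3% and 10.1%, the shares over all 8164 genes, and lists with fewer than 6 genes above background are left out.

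BMP and TGF-beta signalling genes had the largest share of lower genes among the lists with over 10 genes above background, 42.3%. BMPs and TGF-beta are secreted ligands whose receptors phosphorylate SMAD proteins, and SMADs in turn switch on the ID genes and the inhibitory SMADs. Of 26 genes above background 11 were lower and 4 higher, with a median of -0.56, and of the 22 above background on both arrays 9 were lower and 4 higher. Among ligands, BMP2 stood at 10.66 and 7.91 (-2.75) and TGFB1 at 8.18 and 5.79 (at least 2.29-fold lower). Among direct targets, ID1 stood at 13.89 and 11.86 (-2.03) and ID3 at 13.48 and 10.92 (-2.57). ID1, ID2 and ID3 were thus each lower.

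The inhibitory SMADs, which shut the receptors off, were lower as well. SMAD7 stood at 11.04 and 7.95 (-3.09) and SMAD6 at 9.17 and 7.10 (-2.07). BAMBI, a decoy receptor and itself a target of the pathway, lay at 7.83 in vehicle and below background in DHT, at least 1.78-fold lower. The signal transducers SMAD1, SMAD2, SMAD3 and SMAD5 passed in neither direction, while SMAD4, the common partner, was lower by a small margin (-0.62) and SMAD9 by more (-1.59). The higher members were PMEPA1 and 3 receptor genes, BMPR1B (6.64 and 8.91, 2.28), TGFBR1 (0.89) and ACVR2A (0.81). The receptor genes ACVR1B (0.52) and BMPR2 (0.22), the ligand gene INHBB and the target gene SKIL (-0.25) passed in neither direction.

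The SMAD6 promoter window holds a SMAD box, GTCTAGAC, a palindrome that SMAD proteins bind, just before the start site. This motif was searched after the data were seen, and it stood in 71 of all 35116 windows (0.20%) and in 11 windows of the genes kept. It is shown because SMAD6 is the member of the pathway list with such a match, the other genes counted and holding one being GCC2, DYNLT3 and DROSHA.
SMAD6: cggagccgccaaagtGTCTAGACtggc
The stretch lies at chr15:66702209-66702235 on the plus strand, with the box at bases -12 to -5 from the start site.

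Growth factor genes of the insulin-like growth factor and PI3K branch stood on both sides, with 7 of 22 higher and 6 lower and a median of -0.08, and 3 higher and 6 lower of the 18 above background on both arrays. INPP4B, a phosphatase that opposes PI3K signalling, lay below background in vehicle at 4.78 and stood at 9.47 in DHT, at least 7.21-fold higher. IGF1 was at least 3.15-fold higher, its receptor gene IGF1R stood at 7.49 and 8.61 (1.13), and the transcription factor gene FOXO3 at 8.46 and 10.15 (1.68). The mTORC1 inhibitor DDIT4L was lower at 9.71 and 7.79 (-1.92). IGF1 and IGF1R were thus higher while the binding protein gene IGFBP3 was lower. IGF2R was lower too, and IGFBP2 passed in neither direction. With the 99th percentile of the negative controls as background 0 genes of this list were higher and 3 lower. That background was 9.80 for vehicle and 8.86 for DHT, so values raised to it shorten increases more than decreases. Immediate early and MAPK feedback genes counted 5 of 23 higher and 4 lower, with the orphan nuclear receptor NR4A1 at 8.55 and 10.44 (1.89) and KLF4 at least 2.84-fold higher. WNT pathway genes counted 3 of 13 higher and 1 lower, with the receptor FZD5 at 6.75 and 8.50 (1.75) and the receptor-degrading ligase RNF43 at least 2.48-fold lower.

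Lipid metabolism genes went both ways. Of 19 fatty acid synthesis genes 5 were higher and 3 lower, with a median of -0.05. The elongases ELOVL2, at 8.61 and 11.48 (2.87), and ELOVL5, at 14.12 and 16.17 (2.05), were higher, as was fatty acid synthase, FASN, at 13.40 and 14.76 (1.37). DGAT2, which makes triglycerides, stood at 9.74 and 7.73 (-2.01), and SREBF1, the master regulator of lipid synthesis genes, at 13.83 and 12.90 (-0.93). FASN and its regulator SREBF1 thus lay on opposite sides.

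Of 22 fatty acid oxidation genes 5 were higher and 3 lower, with a median of 0.02. CROT, the peroxisomal carnitine octanoyltransferase, stood at 10.48 and 13.59 (3.11). AMACR, the racemase used as a tissue marker of prostate cancer, stood at 7.90 and 10.29 (2.39), ECI2, an enoyl-CoA isomerase, at 11.44 and 13.82 (2.38), and ACADM, the medium-chain dehydrogenase, at 10.67 and 12.26 (1.59). The lower members were HADHA, of the mitochondrial trifunctional protein, at 12.83 and 12.09 (-0.75), the electron transfer gene ETFA (-0.73) and the carnitine palmitoyltransferase gene CPT2 (-0.68). Cholesterol synthesis genes were level, with 1 of 20 higher (IDI1, 0.75) and 1 lower (SREBF2, -0.59) and a median of -0.04.

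Among enzymes of steroid metabolism 5 of 12 were higher and 1 lower, with a median of 0.30, and of the 7 above background on both arrays 2 were higher and 1 lower. AKR1C2, which reduces DHT to a weak androgen, stood at 9.75 and 7.50 (-2.25). UGT2B11, of the glucuronosyltransferase family that conjugates androgens, was at least 3.41-fold higher, and HSD11B2, which inactivates cortisol, at least 2.91-fold higher. The AKR1C and UGT2B families hold near-identical members, and the probes may not tell them apart. HSD17B11, a steroid dehydrogenase of lipid droplets, stood at 13.47 and 14.32 (0.84).

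Secretion and the sugar coating of secreted proteins are known functions of androgen-supplied luminal cells. Of 45 secretory pathway genes 12 were higher and 5 lower, with a median of 0.30, and of 31 hexosamine and glycosylation genes 9 were higher and 3 lower, with a median of 0.25. With the neighbouring genes' median removed 5 glycosylation genes were higher and 4 lower. With the arrays centred on positive controls 10 were higher and 3 lower. Apart from RAB3B, the recycling GTPase RAB4A stood at 11.64 and 13.23 (1.60). SYTL2, a tether of secretory vesicles, stood at 10.14 and 7.81 (-2.33), and KDELR3, a retrieval receptor, at 9.41 and 8.08 (-1.33). EDEM3, which trims mannose from misfolded glycoproteins, stood at 10.61 and 12.14 (1.54), and GCNT1, which branches O-glycans, at 8.52 and 10.03 (1.52). GALNT3, which starts O-glycans, was lower at 11.20 and 9.43 (-1.77), as was ST3GAL1, which caps them with sialic acid.

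Polyamine genes counted 3 of 13 higher and 1 lower, with a median of -0.05. SAT1 led them, followed by AMD1, which makes the aminopropyl donor, at 14.25 and 15.47 (1.22), and MTAP, which salvages the by-product, at 0.72. The synthase genes SRM and SMS passed in neither direction. The polyamine transporter ATP13A2 was lower (-0.83). Amino acid transporters counted 4 of 19 higher and 6 lower, with a median of -0.05. SLC38A4 lay at 3.95 in vehicle and 9.68 in DHT, at least 8.3-fold higher, while the glycine transporter SLC6A9 stood at 10.59 and 9.07 (-1.52), the taurine transporter SLC6A6 at 10.06 and 8.66 (-1.39) and the cationic amino acid transporter SLC7A1 at 12.52 and 11.37 (-1.15).

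Of 30 genes of protein and amino acid stress 4 were higher and 5 lower, with a median of -0.09. Asparagine synthetase, ASNS, stood at 13.29 and 12.09 (-1.20), and PSAT1, of serine synthesis, at 15.92 and 14.73 (-1.19). ERN1, the sensor kinase of the unfolded protein response, was higher at 7.27 and 9.21 (1.94), as was the chaperone gene DNAJB9 at 8.74 and 9.83 (1.09). XBP1, whose transcript ERN1 splices, was lower at 11.27 and 10.55 (-0.72), and ATF4, TRIB3, CHAC1 and SHMT2 passed in neither direction. Glycolysis and hypoxia genes counted 1 of 28 higher and 10 lower, with a median of -0.54. The aldolase ALDOC stood at 12.28 and 10.90 (-1.38), phosphoglycerate kinase PGK1 at 12.93 and 11.90 (-1.03) and the carbonic anhydrase CA12 at 8.28 and 7.08 (-1.19), while NDRG1 was the higher member. With the arrays centred on positive controls 6 of these genes were lower and 1 higher.

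Mitosis genes and DNA replication genes gave different counts. Of 44 mitosis genes 20 were higher and 1 lower, with a median of 0.49, whereas of 41 DNA replication genes 3 were higher and 5 lower, with a median of -0.15, and of 35 cell cycle regulators 2 were higher and 5 lower, with a median of -0.16. CDK1, the kinase that drives entry into mitosis, stood at 10.15 and 11.86 (1.70), the kinetochore protein CENPF at 9.87 and 11.75 (1.89), the kinesin KIF18A at 7.80 and 9.65 (1.85), and the spindle protein HMMR at least 4.1-fold higher. FOXM1, the transcription factor of many mitotic genes, was the lower member (11.75 and 11.13), and with the arrays centred on positive controls 23 mitosis genes were higher and 0 lower. In the replication list the clamp loader RFC3 stood at 11.85 and 12.98 (1.13), and GINS2, of the replicative helicase, at 9.69 and 8.53 (-1.16). E2F1, which switches on replication genes, was at least 1.87-fold lower, the cyclin CCND3 differed by -0.76, and the transcription-linked kinase gene CDK8 by -0.77.

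DNA repair genes counted 12 of 27 higher and 0 lower, with a median of 0.42. RAD50, of the complex that senses double-strand breaks, stood at 12.12 and 13.63 (1.52), its partner NBN at 8.61 and 9.73 (1.12), XRCC4, of end joining, at 7.43 and 8.90 (1.47), and FANCI, of crosslink repair, at 7.90 and 9.03 (1.13). Gene length moved with the DHT difference over all genes, whose median span was 33.2 kb. The mitosis list had a median span of 29.6 kb, with 40.7 kb for its higher genes and 22.8 kb for those in neither set. The repair list had a median span of 56.0 kb, with 93.1 kb for its higher genes and 47.4 kb for those in neither set. With the trend along gene span removed, an alternative chosen after the data were seen, 19 mitosis and 9 repair genes were higher, and the part of gene length in the rest was not tested. Many of these genes are dim, and with the 99th percentile of the negative controls as background 12 mitosis and 3 repair genes were counted higher.

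Over all genes the share counted higher went up with gene span, from 6.55% in the shortest quintile (median 5762 bases) through 11.1% and 15.9% to 22.1% and 21% in the longest quintile (median 155157 bases). The share counted lower was 12.1% in the shortest quintile and 12% in the longest, with smaller shares between. In the siOCT1 arrays the share counted higher with DHT ranged from 9.84% to 12.3% over the same quintiles, with no such climb. The share counted higher also went from 21.4% in the quintile of promoters poorest in G and C to 10.7% in the richest, and the share counted lower from 6.83% to 15.5%. The part of gene length or base composition in these shares was not tested.

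**Figure D4:**
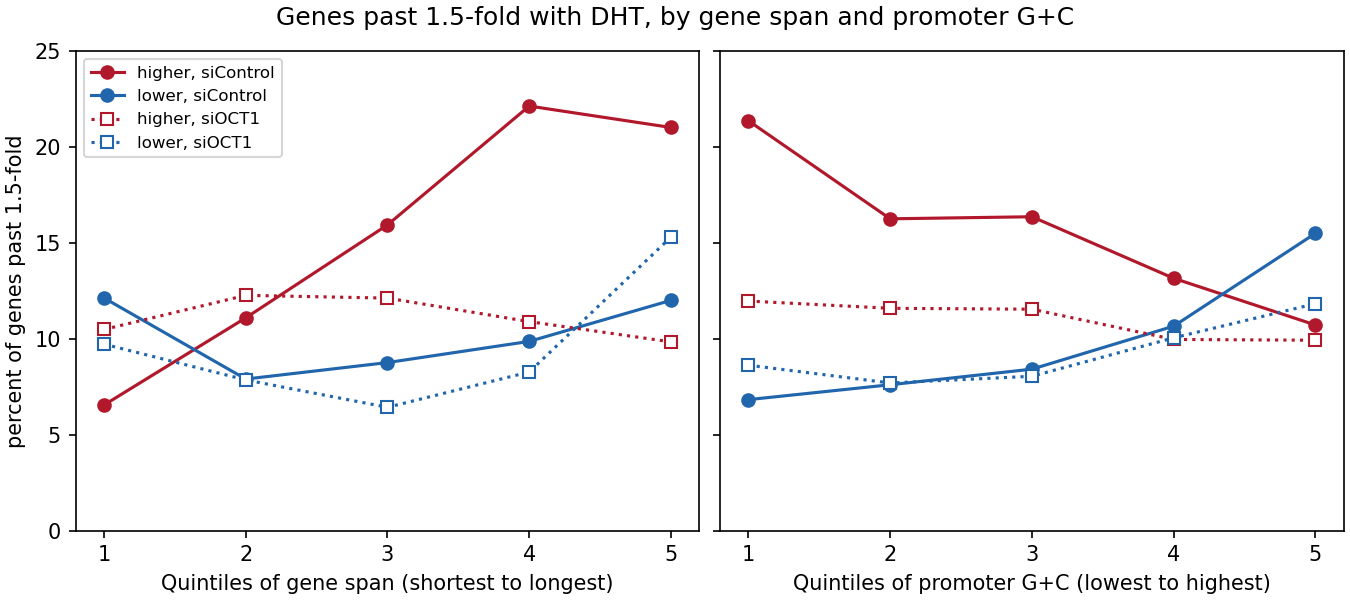
Percent of genes counted higher (red) and lower (blue) with DHT in quintiles of gene span (left, shortest to longest) and of promoter G+C (right, lowest to highest), filled circles and solid lines for the siControl arrays and open squares and dotted lines for the siOCT1 arrays. In siControl the higher share goes from 6.55% to 21% along gene span, and in siOCT1 it stays between 9.84% and 12.3%.

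Ribosomal protein genes, which are short, were lower in 6 of 38 cases and higher in 0, with a median of -0.40. RPL27 stood at 12.10 and 10.51 (-1.59). RPS18, at 15.94 and 15.23 (-0.71), RPL11 (-0.68) and RPS4X (-0.64) passed the size rule narrowly. With the arrays centred on positive controls, or with the gene span trend removed, 1 of the 38 was lower. With the neighbouring genes' median removed 8 were lower, and with the 99th percentile of the negative controls as background 6. The median span of the ribosomal protein genes was 4.74 kb, and the part of gene length in these counts was not tested. Of 14 reference genes 1 was lower (PGK1) and 0 higher, with a median of -0.22, or -0.08 when centred on positive controls. p53 target genes counted 1 of 18 higher (TNFRSF10B, a death receptor, 1.07) and 3 lower, TP53INP1 (-1.26), GDF15 (-0.82) and SESN2 (-0.70), with a median of 0.08. Of 8 interferon-stimulated genes 2 were lower, USP18 (-0.62) and IFITM3 (-0.72), with a median of -0.31.

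Luminal identity was present on both arrays and its genes went both ways. Of 20 luminal markers measured, 18 lay above background, of which 5 were higher and 5 lower, with a median of -0.03, and of the 14 above background on both arrays 3 were higher and 5 lower. Besides KRT8, its partner keratin KRT18 was higher at 12.10 and 13.55 (1.45). The junction protein OCLN was lower at 11.64 and 9.80 (-1.83), as were the adhesion protein E-cadherin (CDH1) at 12.16 and 11.31 (-0.85) and the homeobox factor HOXB13 at 10.62 and 9.96 (-0.67). EPCAM, a surface marker of epithelia, was level at 13.48 and 13.38. The keratin gene KRT19 (9.30 and 9.35) and the claudin genes CLDN3 and CLDN7 passed in neither direction, whereas CLDN4 was lower (-1.30).

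Immune, stromal and basal markers were mostly below background. Of 14 immune genes measured, 0 lay above it, of 15 stromal and endothelial genes 1 did (COL1A2 at 6.63 and 6.77), and of 6 basal genes 1 did (DST, a cytoskeletal linker, at 7.26 and 7.85, 0.59). Of 17 neuroendocrine genes 7 lay above background and 0 of these were higher or lower, with a median of -0.21. The splicing factor SRRM4, which drives a neuronal splicing programme, stood at 8.64 and 8.21 (-0.43).

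The same differences were read in the siOCT1 arrays, which share no array with the siControl pair. Of the 1252 higher genes 1160 lay above background there, and 303 (26.1%) were again higher, 33 lower and 824 neither, against 11.1% higher over the 7366 genes above background in both pairs. Of the 827 lower genes 742 lay above background there, and 230 (31.0%) were again lower, 30 higher and 482 neither, against 9.52% lower over all. Of the 15 genes highest in siControl 12 were higher in siOCT1 as well, and all 15 of the lowest were lower there.

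SLC45A3 stood at 5.81 and 12.21 in siOCT1 cells, at least 28.2-fold higher with DHT. RAB3B differed by 4.16, DBI by 3.95 and STEAP1B by 3.17, beside 4.42, 3.64 and 3.33 in siControl. HPGD differed by 2.25 and MALT1 by 1.55, beside 4.05 and 3.37, HPGD with a vehicle level of 13.49 in place of 11.78. The genes of the 15 highest that passed in neither direction there were HSPA2 (7.25 and 7.79) and SNAI2 (4.27 and 7.67). Both lay below the background of the siOCT1 vehicle array, 7.39, and were raised to it. Unraised, SNAI2 differed by 3.40 in siOCT1 beside 3.43 in siControl, so its bound does not show a lost response. F3 lay below background on both siOCT1 arrays. Among the lowest, IGFBP3 differed by -2.60 and BMP2 by -2.44, and SMAD7 by -0.77 and CBLN2 by -0.70. Whether the response differs between siRNAs was not tested, since each of the 4 groups has 1 array.

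**Figure D5:**
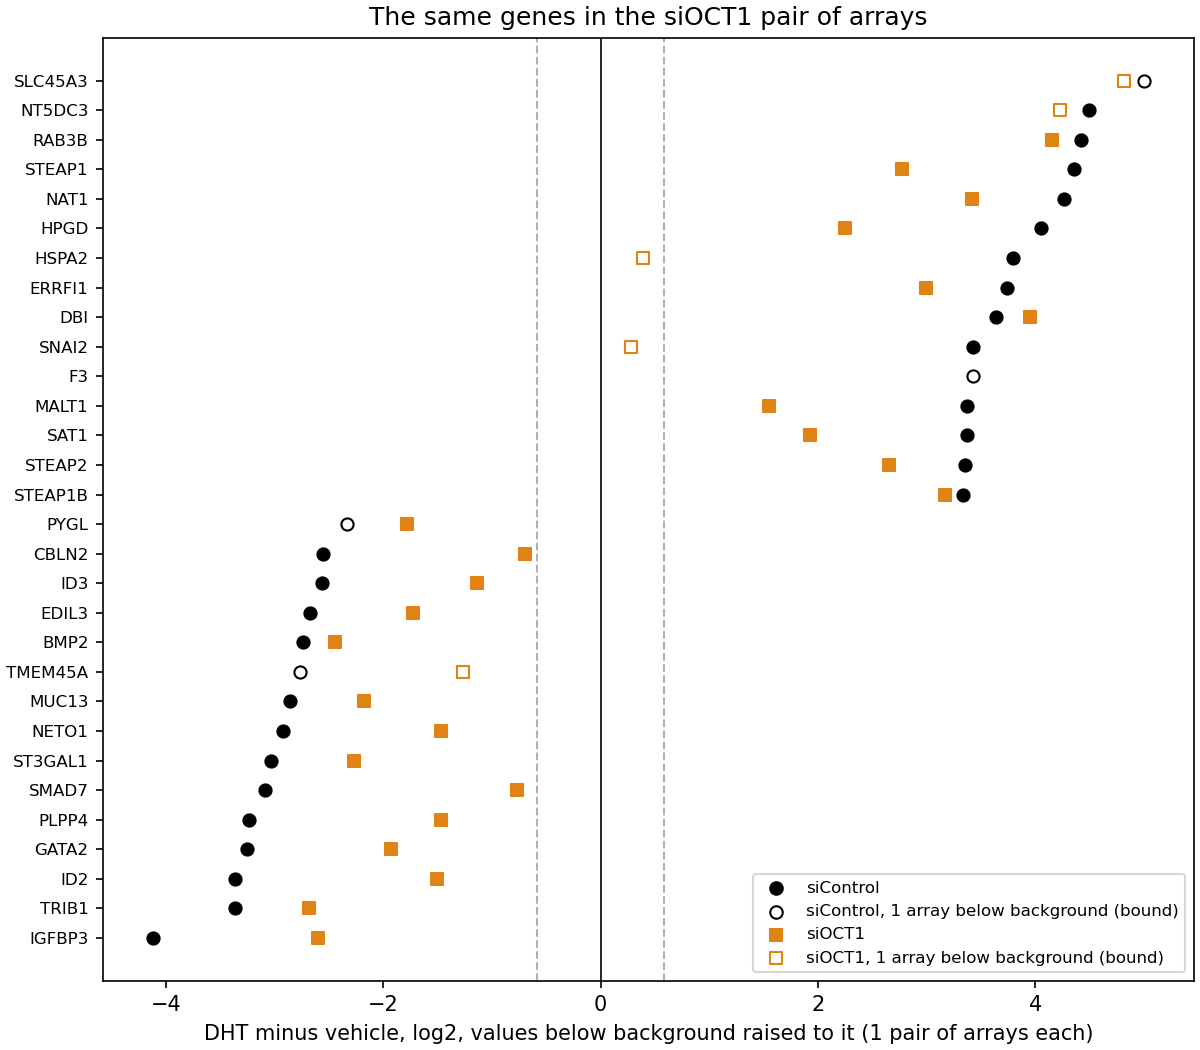
DHT minus vehicle, in log2 with values below background raised to it, for the 15 highest and 15 lowest genes in siControl (circles) and for the same genes in siOCT1 (squares), open symbols marking bounds and dashed lines the 1.5-fold rule. All 15 lowest genes lie left of the lower dashed line in siOCT1, 12 of the highest lie right of the upper one, and F3 has no square because it was below background there.

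By list, the androgen targets were again mostly higher in the siOCT1 pair, with 12 of 18 genes above background higher, 1 lower and a median of 2.96. The glucocorticoid-shared genes counted 3 of 10 higher with a median of 0.53, and the BMP and TGF-beta genes 10 of 21 lower and 3 higher with a median of -0.28. Mitosis genes counted 7 of 40 higher and 2 lower with a median of 0.11, DNA repair genes 2 of 18 higher with a median of 0.37, and DNA replication genes 8 of 31 higher and 1 lower with a median of 0.45. Glycolysis and hypoxia genes counted 5 of 26 higher and 2 lower with a median of 0.10, and ribosomal protein genes 0 of 38 in either direction with a median of -0.05. These values stand beside the siControl ones as a description, with 1 array in each group.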

How the data were processed

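Total RNA of 22Rv1 cells was hybridised to 4 arrays, 1 per group. The deposited table holds log2 signals. Per the submitters' processing notes, the authors used Affymetrix Expression Console and RMA. Their versions and the genome build are not given in the sources used here. This method gives all arrays a shared distribution and so hides a change in total RNA. Of 24351 probe sets 17709 had 1 symbol in the platform table and 0 had several. They gave 17687 genes, 20 of them with several probe sets, and the probe set of highest mean signal stood for such a gene.

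Values below their array's background, the 95th percentile of its negative controls, were raised to it before the 1.5-fold rule was applied. Medians are of unraised differences. The 32 gene lists and the rule for named genes (the 15 highest, the 15 lowest, up to 4 per list and a few fixed genes) were chosen with earlier results of these data known, and other genes were named after their values were seen. Alternatives changed the background, size rule, centring, log scale, probe sets, symbols and motif rule. The counting was tried on simulated arrays in which genes well above background were changed by 2-, 4- or 8-fold. Changes near the 1.5-fold limit and changes in dim genes were not tried. Python 3.11.15 with numpy 2.4.6, pandas 2.3.3, statsmodels 0.14.6 and matplotlib 3.10.9 was used. Gene spans and promoters came from RefSeq tables of GRCh38.p14, matched by symbol for 8162 and 6893 of 8164 genes.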

Additional observations from a re-analysis of the deposited data

Results flagged for a closer look

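Among the genes named, 4 passed 1.5-fold in opposite directions in the siControl and siOCT1 pairs of arrays, and the difference between the pairs was not tested because each group had 1 array. SLC7A1, the cationic amino acid transporter, differed by -1.15 with DHT in siControl and by 0.60 in siOCT1. Asparagine synthetase, ASNS, differed by -1.20 and 0.70. LEF1, a transcription factor of WNT signalling, differed by 0.60 and -0.69. The cytoskeletal linker DST differed by 0.59 and -0.69. LEF1 and DST lay close to the 1.5-fold limit of 0.585 in siControl, and all 4 genes lay close to it in siOCT1. Over all genes above background in both pairs, 33 of 1160 higher in siControl were lower in siOCT1, and 30 of 742 lower were higher.

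Probe sets that carry no gene name in the platform table were counted by the same rule. Of 3188 such transcript probe sets 1020 lay above background on at least 1 siControl array, and 154 of these were higher and 89 lower by 1.5-fold. These shares lie near those of the genes kept, 15.3% higher and 10.1% lower. The largest increase among them went from 6.96 to 12.47 in siControl and from 8.73 to 12.42 in siOCT1.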

How the results depend on the processing

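The counts of genes depend on the rules for size, background and centring. With a 2-fold rule 573 genes were higher and 225 lower. The 99th percentile of the negative controls was 9.80 for vehicle and 8.86 for DHT, so values raised to it shorten increases more than decreases. With it as background 526 genes were higher and 391 lower among 4931 kept. With the 50th percentile 1779 were higher and 1622 lower among 13812. With arrays centred on positive controls 516 were lower. The share of higher genes' promoter windows with a full androgen response element was 0 with at most 1 mismatch. Removing the trend along gene span (1267 higher, 797 lower) or the median of neighbouring genes (1159 and 848), both chosen after seeing the data, left the counts within 1.5 times. Of 1192 values of named genes under the alternatives other than the 2-fold rule, 1150 kept their side of the size rule. Of the others 42 fell short of it and 0 reversed. Most of these genes were named for the size of their difference, which makes a reversal unlikely. Of the 111 genes these values cover, 68 kept their side under the 99th percentile and 15 fell short. The rest lay below that background and gave no value. Among those that fell short were F3 at 0.24 and INPP4B and SGK1 at 0. With that background 6 glucocorticoid-shared genes were higher and 7 BMP and TGF-beta genes lower. The median of the androgen-response list of 74 genes was 0.58 with the neighbouring genes' median removed. No paired analysis was possible because each group has 1 array. Depth in the sense of counts does not apply to arrays, and dim genes are limited by the background: 122 higher and 94 lower genes rest on a bound.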

Other observations

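The genes counted higher with DHT in siControl were unevenly spread over chromosomes. The share ranged from 2.65% of 189 genes kept on chromosome 22 and 6.10% of 213 on chromosome 20 to 26.6% of 308 on chromosome 4 and 30.1% of 146 on chromosome 13. Median differences followed, at -0.16 on chromosome 22 and 0.25 on chromosome 13, beside -0.04 and 0.11 in the siOCT1 arrays. Median gene span was 27.4 kb on chromosome 22, 30.6 kb on chromosome 20, 51.0 kb on chromosome 4 and 52.7 kb on chromosome 13. Chromosome 18, with the longest median span (54.4 kb), had 14.8% higher. Chromosome 19, with the shortest (17.9 kb), had 12.8%, and both lay near the share of all genes kept. The part of gene span in the spread over chromosomes was not tested.

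Neighbouring genes were often counted alike. Of the genes counted higher, 52.2% had an adjacent gene, in chromosome order among those kept, that was higher too, against 26.5% of all genes kept. For genes counted lower the shares were 25.4% and 19.3%.

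The spike-in RNAs of the arrays were dimmer on the DHT array. The 4 hybridisation controls differed by -0.28 to -0.19 and the 4 labelling controls by -0.56 to -0.20, the largest of these near the 1.5-fold limit of 0.585.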
